A study of Mus musculus with 36 samples.

Results

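The data described here are the RNA levels of 8 genes of mitochondrial Ca2+ transport, among 55416 genes counted, in differentiated C2C12 myotubes. The genes were taken by name: *Mcu*, *Mcub*, *Smdt1*, *Micu2*, *Micu3* and *Mcur1* of the mitochondrial calcium uniporter complex, and the exchangers *Slc8b1* and *Letm1*. C2C12 is an established mouse myoblast line that fuses into contracting myotubes. On day 3 of differentiation the cells received an antisense LNA oligonucleotide against the long non-coding RNA *Tug1* (*Tug1* KD) or a negative control LNA, and on day 4 they were left unstimulated (Rest) or given electrical pulse stimulation (EPS) for 3 h. Stimulated cells were collected at once (EPS 0h) or 3 h later (EPS 3h), so that 6 groups of 6 libraries (36 in all) carried control LNA or *Tug1* LNA at Rest, EPS 0h or EPS 3h. Each library came from 1 well of triplicate wells in 2 independent experiments with a single cell line and a single *Tug1* LNA. Except where stated, p-values came from a fit without a term for the experiment. They measured the spread over the wells of both experiments together, and wells of the same experiment are not independent units. The libraries held 17005079 to 24181167 counts.

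The uniporter carries Ca2+ from the cytosol into the mitochondrial matrix, driven by the membrane potential. MCU forms the pore, MCUB is a paralogue that takes a place in the pore and lowers its current, and EMRE (encoded by *Smdt1*) is the small subunit the animal pore needs to conduct. MICU2 and MICU3 are EF-hand proteins of the gate on the cytosolic side, MCUR1 is a membrane protein reported to support uniporter assembly, NCLX (*Slc8b1*) returns Ca2+ to the cytosol in exchange for Na+, and LETM1 is an inner membrane cation exchanger. In muscle this traffic links contraction to the Ca2+-sensitive dehydrogenases of the matrix.

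*Mcu* and *Mcub* are related genes that moved in opposite directions below, so the stretch that encodes their shared pore motif is shown first. Each 60-base stretch lies in exon 6 of 8 of the canonical transcript, on the minus strand of GRCm39, at chr10:59290813-59290872 for *Mcu* and chr3:129710633-129710692 for *Mcub*. Capitals mark the codons of the DIME motif that lines the pore entrance.
Mcu: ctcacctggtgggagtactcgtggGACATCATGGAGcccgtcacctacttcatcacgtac
Mcub: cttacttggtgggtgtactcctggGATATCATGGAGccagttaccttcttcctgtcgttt
The stretches shared 47 of 60 bases, and 1 of the motif's codons was spelled differently. Over the whole coding sequence 574 of 991 aligned bases (57.9%) were the same. The longest run shared by the canonical transcripts was 13 bases, far shorter than a 150-base read.

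All 8 members passed the filter on low counts, which asked for 1 RPM (counts scaled to the library total) or more in 12 or more of the libraries and left 13995 genes to test. The levels given below are RPM scaled further by the trimmed mean of M values (TMM), with factors from 0.916 to 1.084. Per kilobase of the canonical transcript, *Smdt1* stood highest in resting control myotubes at 146 RPM per kb, with every library above every library of the other members. *Slc8b1* (39.2), *Micu2* (35.0) and *Mcu* (26.004 RPM per kb) followed, and in this order the libraries of *Slc8b1* overlapped those of *Micu2*, and those of *Micu2* overlapped those of *Mcu*. *Letm1* (12.4), *Mcur1* (10.1), *Mcub* (3.87) and *Micu3* (1.59 RPM per kb) came next, each without overlap with its neighbour. The order after EPS 3h in *Tug1* KD myotubes differed from it. There *Micu2* (41.7) and *Mcu* (39.5 RPM per kb) overlapped each other and stood above *Slc8b1* (14.4 RPM per kb), and *Micu3* (3.04) overlapped *Mcub* (2.95 RPM per kb). The order depended on the length used. Per kilobase of all annotated exons of a gene, which reads of any of its transcripts may cover, *Smdt1* (25.3) and *Slc8b1* (17.3 RPM per kb) stayed at the top in resting controls. *Micu2* (9.32) followed, while *Mcu* (5.96 RPM per kb) lay below *Letm1* (6.16) and above *Mcur1* (5.24) and overlapped both. *Mcub* (3.32) and *Micu3* (0.975 RPM per kb) again came last. Reads from exons that an antisense gene shares with a member could not be assigned to a strand here, because the strand setting of the counting was not given in the sources used here. Such exons made up 48.1% of the canonical *Smdt1* transcript (antisense gene *Gm62022*), 14.2% of *Micu3* (*1500004F05Rik*), 13.1% of *Mcub* (*Casp6*) and 6.15% of *Mcu* (*Gm10322*).

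**Figure D1:**
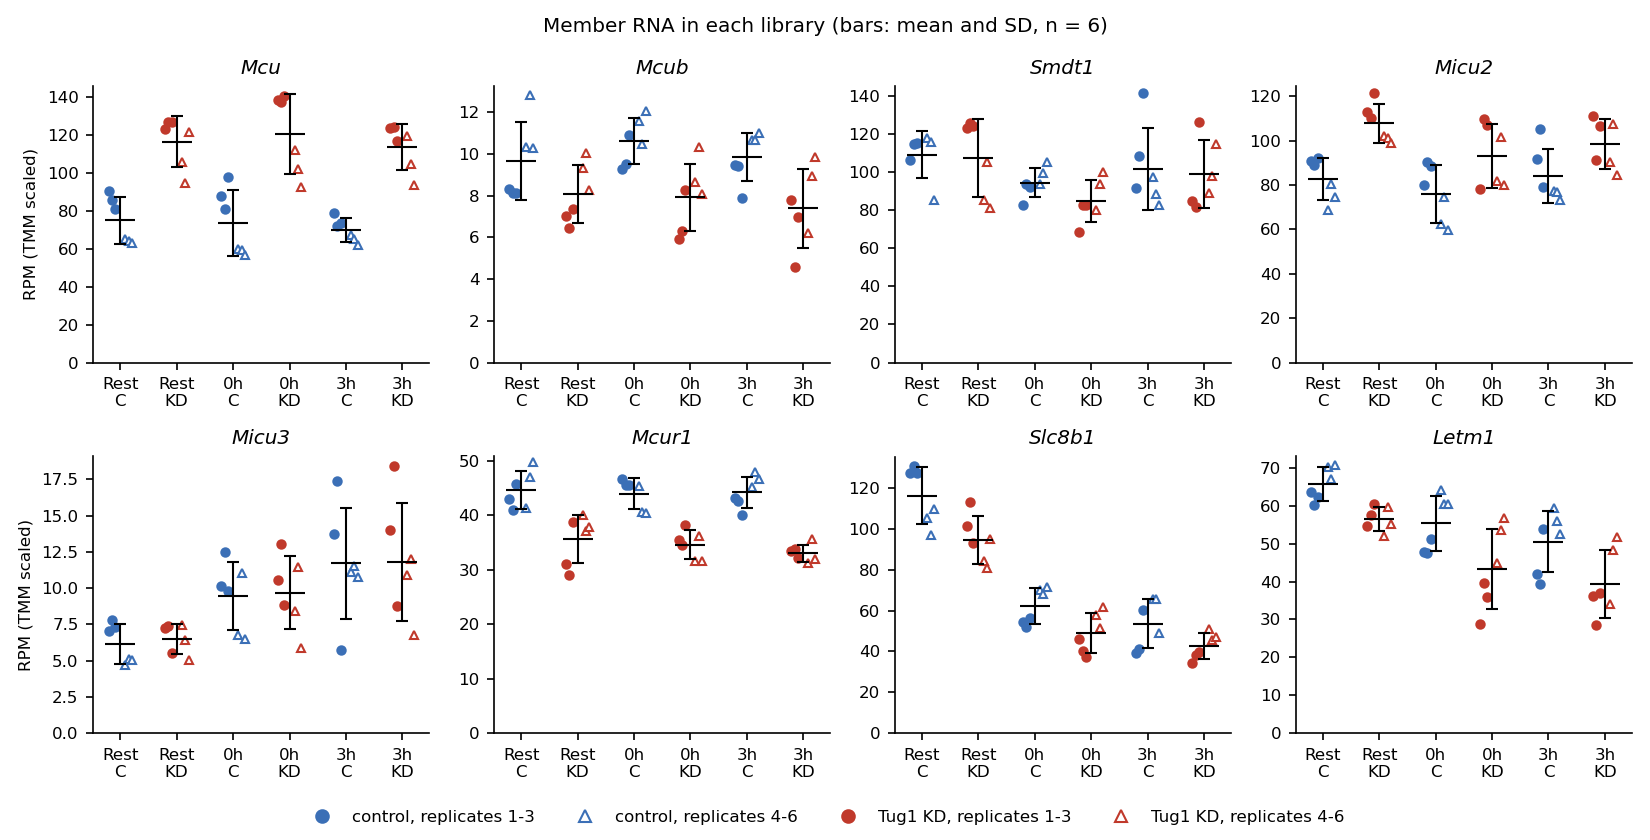
RNA level of each of the 8 members in all 36 libraries, in RPM scaled by the trimmed mean of M values (TMM), with each y axis starting at 0. Blue marks control and red *Tug1* KD at Rest, EPS 0h (0h) and EPS 3h (3h), circles are replicates 1 to 3 and triangles replicates 4 to 6, and the bars give the mean and SD of 6 libraries. *Mcu* is higher in *Tug1* KD at each condition, *Slc8b1* is lower after EPS with either LNA, and the means of replicates 4 to 6 lie below those of replicates 1 to 3 for *Mcu* and *Micu2*.

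The targeted transcript was lower in *Tug1* KD myotubes: *Tug1* averaged 48.4 ± 6.78 RPM (SD, n = 6) in control and 27.3 ± 3.69 RPM (n = 6) in *Tug1* KD at Rest, with no overlap (log2FC -0.83 ± 0.17 SE, FDR 0.000915). The 10 myotube markers, among them *Ckm*, *Acta1* and *Myog*, summed to between 18666 and 21189 RPM in the group means, and 6 markers of cycling or undifferentiated myoblasts to between 138 and 192 RPM. Markers of leukocytes, endothelium, epithelium and adipocytes (*Ptprc*, *Pecam1*, *Epcam* and *Adipoq*) summed to 0.376 to 0.507 RPM at Rest and 7.35 to 9.58 RPM at EPS 3h. In such bulk libraries fewer cells of a type and less RNA per cell cannot be told apart. None of the 4 was at 0 counts throughout, and 2 of the 4 passed the filter. Replicates 1 to 3 and replicates 4 to 6 parted within groups, and they are given separately where the result depended on them, although the labels do not say which experiment a replicate belongs to. A pair of libraries lay apart from their set. On the first principal component of the log2 levels within groups, EPS 3h control replicate 3 was at 12.3, beside -34.9 and -32.1 for replicates 1 and 2 and 16.7 to 20.5 for replicates 4 to 6 of its group. EPS 3h *Tug1* KD replicate 3 was at -0.944, beside -34.9 and -25.4 for the first pair and 8.82 to 32.0 for replicates 4 to 6. These libraries held the highest *Smdt1* level of their groups (142 and 127 RPM), and EPS 3h control replicate 3 held the lowest *Micu3* level of its group (5.74 RPM, 101 counts). Results at EPS 3h are given without them for these genes.

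The first comparison asked how *Tug1* KD changed the members at each condition. *Mcu* rose at Rest, EPS 0h and EPS 3h, *Mcur1* fell at all 3, *Micu2* rose at Rest, and averaged over the conditions *Mcub*, *Slc8b1* and *Letm1* fell as well. *Smdt1* and *Micu3* were not called in any of these comparisons. Changes are log2FC from edgeR's quasi-likelihood test with Benjamini-Hochberg adjusted p-values (FDR) over all genes tested, called below 0.05. At Rest 3 of 8 members passed, against 10% of all genes tested. At EPS 0h 2 of 8 passed, against 14.3%, and at EPS 3h 2 of 8 passed, against 11.5%. Averaged over the 3 conditions 6 of 8 passed, against 33.1% of all genes, and the members' median log2FC was -0.19 beside -0.02 over all genes.

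*Mcu*, which encodes the pore, ranged from 63.0 to 90.6 RPM (median 73.0) in resting controls and from 94.5 to 127 RPM (median 122) in resting *Tug1* KD myotubes. Every *Tug1* KD library lay above every control library. The log2FC was 0.64 ± 0.13 (SE, n = 6 per group, FDR 0.00068). At EPS 0h the control libraries spanned 56.8 to 97.8 RPM (median 70.3) and the *Tug1* KD libraries 92.7 to 141 RPM (median 125). These groups overlapped, since a *Tug1* KD library of replicates 4 to 6 lay below a control library of replicates 1 to 3, while within each set of replicates they did not. The log2FC was 0.71 ± 0.13 (FDR 0.000136). At EPS 3h controls spanned 61.8 to 79.0 RPM (median 69.4) and *Tug1* KD 93.6 to 124 RPM (median 118), again without overlap (log2FC 0.70 ± 0.13, FDR 0.000211). Averaged over the 3 conditions *Mcu* was 1.61-fold higher (log2FC 0.68 ± 0.07, FDR 2.99e-09), and 1.94% of all genes tested had a higher log2FC. Taken alone, replicates 1 to 3 gave an averaged log2FC of 0.64, and the other replicates 0.75.

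*Mcub*, whose product lowers the pore's current, went the other way. It spanned 8.13 to 12.8 RPM (median 9.30) in resting controls and 6.47 to 10.0 RPM (median 7.81) in resting *Tug1* KD myotubes. The groups overlapped, and the log2FC of -0.26 ± 0.15 was not called (FDR 0.343). At EPS 0h (log2FC -0.42 ± 0.15, FDR 0.0562) and EPS 3h (-0.42 ± 0.15, FDR 0.0736) the difference also missed the threshold. Averaged over the conditions *Mcub* fell by 22.4% (log2FC -0.37 ± 0.09, FDR 0.0012). With the replicate number as a block, *Mcub* was called at EPS 0h (FDR 0.00265) and at EPS 3h (FDR 0.00466).

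The ratio of *Mcu* to *Mcub* RNA in the same library, each per kb, is given as a description because both genes entered the tests above. With lengths of the canonical transcripts it averaged 7.06 ± 2.28 (SD, n = 6) in resting controls and 13.0 ± 3.41 in resting *Tug1* KD myotubes. At EPS 0h it averaged 6.14 ± 1.84 and 13.96 ± 4.84, and at EPS 3h 6.27 ± 1.26 and 14.5 ± 5.36. The lowest *Tug1* KD library lay above the highest control library at EPS 0h (8.57 against 8.21) and at EPS 3h (8.26 against 8.11), and below it at Rest (8.19 against 9.46). With the lengths of all annotated exons every ratio was 3.74 times smaller (1.89 ± 0.608 in resting controls and 3.48 ± 0.91 in resting *Tug1* KD), so that the size of the ratio rests on the length used and the comparison between groups does not. Against the exporter the ratio of *Mcu* to *Slc8b1* averaged 0.662 ± 0.0477 in resting controls, and 1.27 ± 0.0893 in resting *Tug1* KD myotubes. At EPS 0h it averaged 1.27 ± 0.452 in controls and 2.68 ± 0.953 in *Tug1* KD, and at EPS 3h 1.42 ± 0.426 and 2.82 ± 0.641. The sets of replicates parted at EPS 0h: controls spanned 1.60 to 1.79 in replicates 1 to 3 and 0.818 to 0.894 in replicates 4 to 6, and *Tug1* KD 3.09 to 3.90 and 1.55 to 2.04. Within each set the *Tug1* KD libraries lay above the controls. With the lengths of all annotated exons these ratios were 1.93 times smaller, at 0.344 in resting controls and 0.66 in resting *Tug1* KD, so which of *Mcu* and *Slc8b1* stood higher on average in resting *Tug1* KD myotubes, and in controls after EPS, depended on the length. A ratio of RNA says nothing of the make-up of the protein complex, which was not measured in these libraries.

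**Figure D2:**
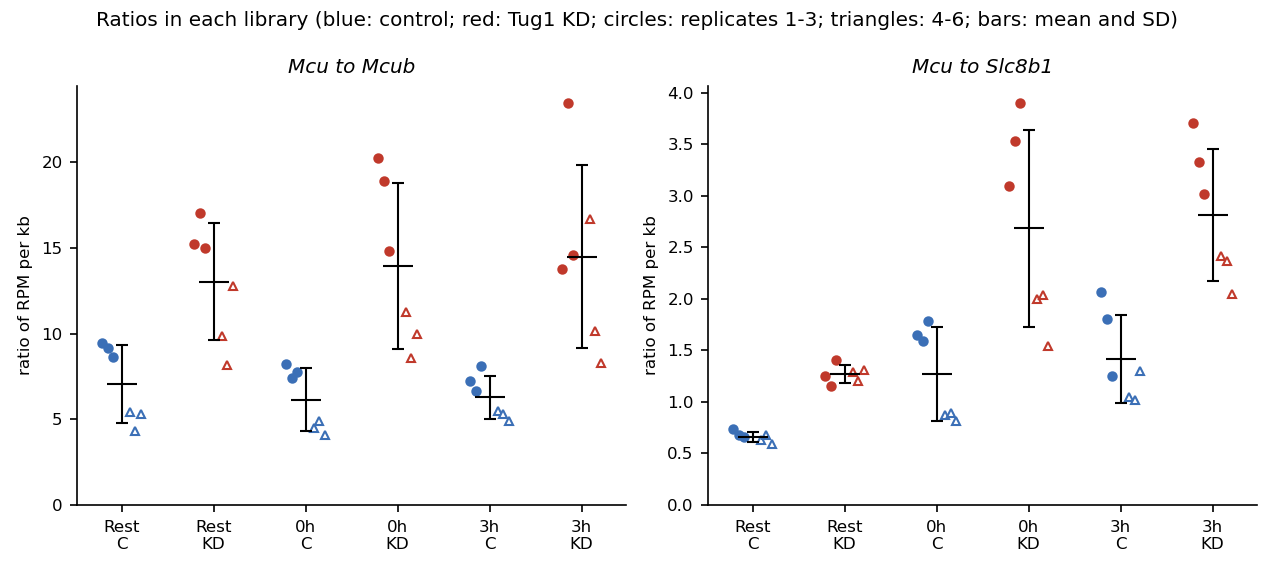
Ratio of *Mcu* to *Mcub* (left) and of *Mcu* to *Slc8b1* (right) in each library, from RPM per kb of the canonical transcript, on axes that start at 0. Blue is control, red is *Tug1* KD, circles are replicates 1 to 3, triangles replicates 4 to 6, and bars are the mean and SD of 6 libraries; the *Mcu* to *Mcub* ratio averages 7.06 in resting controls and 13.0 in resting *Tug1* KD myotubes.

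Among the gate subunits *Micu2* rose and *Micu3* was not called. *Micu2* spanned 68.7 to 92.0 RPM (median 84.7) in resting controls and 98.9 to 122 RPM (median 106) in resting *Tug1* KD myotubes. There was no overlap, and the log2FC was 0.38 ± 0.11 (FDR 0.0196). The call at Rest was lost when *Tug1* KD replicate 3 (FDR 0.0587), control replicate 4 (0.0625) or control replicate 6 (0.0515) was left out, and in replicates 1 to 3 alone (log2FC 0.34, FDR 0.112). At EPS 0h (log2FC 0.29 ± 0.11, FDR 0.0739) and EPS 3h (0.23 ± 0.11, FDR 0.195) it was not called, and with the replicate block it was (FDR 0.00476 and 0.0305). Averaged, *Micu2* rose by 23.3% (log2FC 0.30 ± 0.06, FDR 0.000298). The log2FC was 0.24 in replicates 1 to 3 alone and 0.39 in the others. *Micu3* spanned 4.68 to 7.80 RPM in resting controls and 5.05 to 7.43 RPM in resting *Tug1* KD myotubes, and its averaged log2FC was 0.04 (95% interval -0.21 to 0.29, FDR 0.834).

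*Smdt1*, the EMRE gene, had the highest level per kb and no called difference between LNAs. It spanned 85.2 to 118 RPM (median 115) in resting controls and 81.0 to 126 RPM (median 114) in resting *Tug1* KD myotubes, and these ranges overlapped almost fully. The averaged log2FC was -0.07 with a 95% interval from -0.22 to 0.07 (FDR 0.489). At EPS 0h its log2FC was -0.16 (FDR 0.474) and at EPS 3h -0.04 (FDR 0.913). Without EPS 3h control replicate 3 the latter was 0.08 (FDR 0.763), and without EPS 3h *Tug1* KD replicate 3 it was -0.12 (FDR 0.636).

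*Mcur1* fell in *Tug1* KD myotubes at every condition and was the member with the smallest SE. It spanned 40.9 to 49.8 RPM (median 44.4) in resting controls and 29.0 to 40.1 RPM (median 37.5) in resting *Tug1* KD myotubes. The libraries did not overlap at Rest (log2FC -0.32 ± 0.08, FDR 0.00336), at EPS 0h (-0.35 ± 0.08, FDR 0.00126) or at EPS 3h (-0.42 ± 0.08, FDR 0.000174). At EPS 3h controls spanned 40.1 to 47.9 RPM and *Tug1* KD 31.3 to 35.6 RPM. Averaged, *Mcur1* fell by 22.3% (log2FC -0.36 ± 0.04, FDR 2.65e-08), with -0.35 in replicates 1 to 3 alone and -0.37 in the others. The call at Rest was lost when genes of low count were kept in the test (FDR 0.144) and in replicates 4 to 6 alone (log2FC -0.26, FDR 0.059). In replicates 1 to 3 alone it was called at Rest (FDR 0.0306), but not at EPS 0h (log2FC -0.33, FDR 0.0632) or EPS 3h (-0.34, FDR 0.0617).

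Averaged over the conditions both exchangers fell: *Slc8b1* fell by 20.02% (log2FC -0.32 ± 0.08, FDR 0.00118) and *Letm1* fell by 19.4% (log2FC -0.31 ± 0.08, FDR 0.0017). At Rest *Slc8b1* spanned 97.3 to 131 RPM (median 119) in controls and 81.1 to 113 RPM (median 94.2) in *Tug1* KD, and *Letm1* spanned 60.3 to 70.9 RPM (median 65.4) and 52.1 to 60.4 RPM (median 56.4). The *Slc8b1* groups overlapped and the *Letm1* groups by the highest *Tug1* KD library. Neither exchanger was called at a single condition (FDR 0.0713 to 0.382 for *Letm1* and 0.085 to 0.174 for *Slc8b1*). With the replicate block *Letm1* was called at EPS 0h (FDR 0.00677) and EPS 3h (FDR 0.00823), and *Slc8b1* at EPS 0h (FDR 0.0481), which brought the called members to 6 at EPS 0h and 5 at EPS 3h. The same block raised the calls over all 13995 genes from 2005 to 3406 at EPS 0h and from 1608 to 2878 at EPS 3h.

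**Figure D3:**
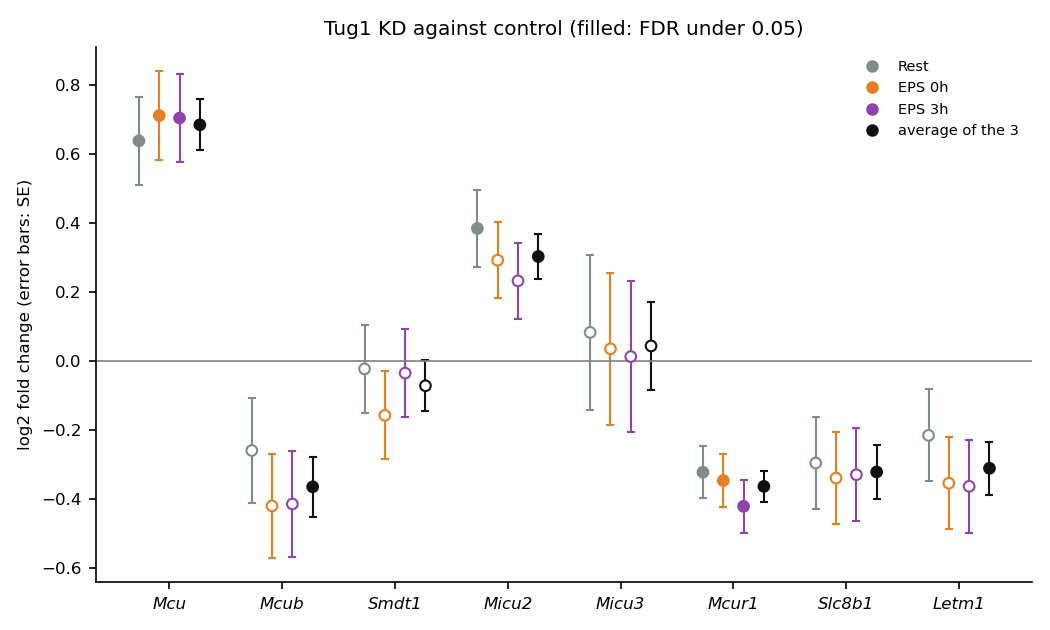
Log2 fold change of *Tug1* KD against control (y axis, error bars SE) for each member at Rest (grey), EPS 0h (orange), EPS 3h (purple) and averaged over the 3 (black). Filled points passed an FDR of 0.05 in edgeR. *Mcu* lies between 0.64 and 0.71 at each condition, *Mcur1* between -0.42 and -0.32, and *Smdt1* and *Micu3* have no filled point.

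Libraries of *Tug1* KD and control myotubes did not overlap for 3 members at Rest (*Mcu*, *Micu2*, *Mcur1*), against 8.07% of all genes tested. At EPS 0h this held for 1 member (*Mcur1*, against 7.94% of genes) and at EPS 3h for 2 (*Mcu* and *Mcur1*, against 4.62%).

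Over all genes tested, the median averaged log2FC rose with the length of the gene on the chromosome. *Mcu* spans 169.7 kb (chr10:59282806-59452522, minus strand, GRCm39), *Micu2* 83.1 kb (chr14:58153706-58236767, minus) and *Micu3* 78.9 kb (chr8:40760499-40839367, plus). *Mcub* spans 56.4 kb (chr3:129707425-129763869, minus) and *Letm1* 43.2 kb (chr5:33897011-33940209, minus). The shortest are *Slc8b1* with 22.9 kb (chr5:120649173-120672102, plus), *Mcur1* with 21.9 kb (chr13:43691869-43713738, minus) and *Smdt1* with 12.5 kb (chr15:82223160-82235678, plus). Of the 1822 genes tested that span 100 kb or more, 48.6% were called higher and 2.58% lower in *Tug1* KD averaged over conditions, with a median log2FC of 0.21. Of the 3408 genes under 10 kb, 4.67% were higher and 23.2% lower, with a median of -0.10. *Mcu* at 0.68 lay above the upper quartile of its length class (0.40), *Micu2* at 0.30 above that of the genes of 30 to 100 kb (0.17), and *Mcub* and *Letm1* below the lower quartile of that class (-0.10). *Mcur1* and *Slc8b1* lay below the lower quartile of the genes of 10 to 30 kb (-0.18). *Micu3* (0.04) and *Smdt1* (-0.07) lay between the quartiles of their classes. Such a gradient was not particular to *Tug1* KD. For EPS 3h against Rest in controls 39.0% of the genes of 100 kb or more were called higher and 13.3% lower. Of the genes under 10 kb 20.7% were higher and 30.4% lower in that comparison. The part of gene length in these results was not tested.

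**Figure D4:**
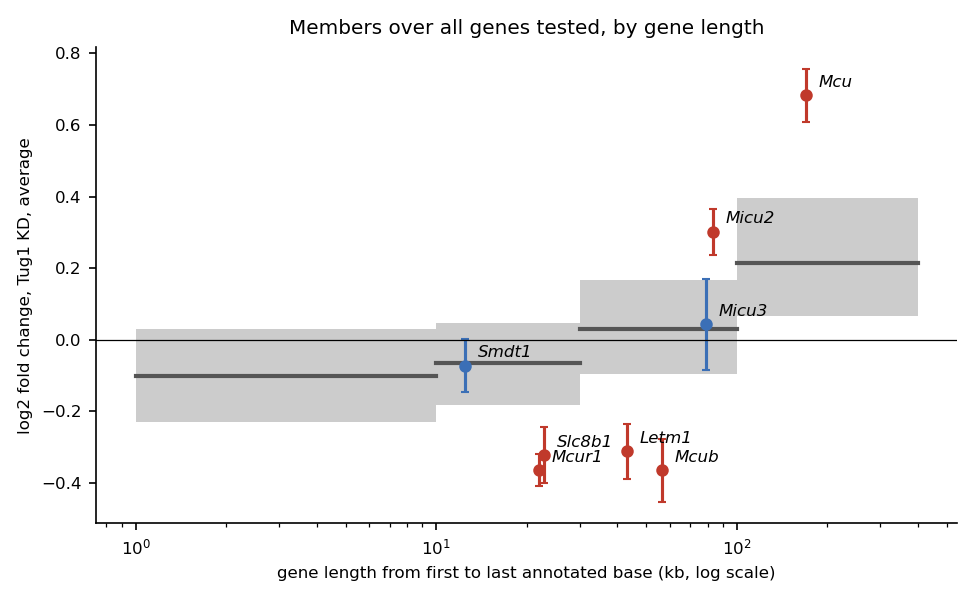
Averaged log2 fold change of *Tug1* KD against control (y axis, error bars SE) against gene length from the first to the last annotated base (x axis, kb, log scale). Grey boxes give the quartiles and dark lines the median of all genes tested in 4 length classes (under 10, 10 to 30, 30 to 100, and 100 kb or more; the outer classes are drawn to fixed edges); members past an FDR of 0.05 are red and the others blue. *Mcu* lies above the box of its class, and *Mcub*, *Letm1*, *Mcur1* and *Slc8b1* lie below theirs.

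The next comparison asked how EPS changed the members in control myotubes. *Slc8b1* fell and *Micu3* rose at both times, *Letm1* fell at the later time, and *Mcu*, *Mcub*, *Micu2*, *Mcur1* and *Smdt1* were not called. At EPS 0h 2 of 8 members passed, against 38.9% of all genes, and at EPS 3h 3 of 8, against 52% of all genes. Whether these shares differ from those of all genes was not tested. Both comparisons share the resting libraries, and with a single resting group the recovery and the time in culture cannot be told apart.

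*Slc8b1*, the Na+/Ca2+ exchanger gene, had the largest change of any member. From 97.3 to 131 RPM (median 119) at Rest it went to 52.2 to 71.6 RPM (median 62.3) at EPS 0h and 39.4 to 65.95 RPM (median 54.9) at EPS 3h. All 6 libraries of each EPS group lay below all 6 resting libraries. It fell by 46.5% at EPS 0h (log2FC -0.90 ± 0.13, FDR 1.6e-06) and by 53.9% at EPS 3h (log2FC -1.12 ± 0.13, FDR 1.17e-08). The fall differed in size between the sets of replicates: replicates 1 to 3 gave a log2FC of -1.24 for EPS 0h and -1.44 for EPS 3h when fitted alone, and replicates 4 to 6 gave -0.57 and -0.79, each called within its set. At EPS 3h 96.5% of all genes tested had a higher log2FC than *Slc8b1*.

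*Letm1* spanned 60.3 to 70.9 RPM at Rest, 47.6 to 64.3 RPM (median 55.9) at EPS 0h and 39.4 to 59.4 RPM (median 53.3) at EPS 3h. At EPS 0h the libraries overlapped those at Rest (log2FC -0.25 ± 0.13, FDR 0.142), and with the replicate block the difference was called (FDR 0.0333). At EPS 3h they did not overlap (log2FC -0.38 ± 0.13, FDR 0.0172), and the call was lost without EPS 3h control replicate 2 (FDR 0.0554).

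*Micu3*, which encodes the gate subunit best known from neurons, rose from 4.68 to 7.80 RPM (median 6.05) at Rest to 6.52 to 12.5 RPM (median 9.95) at EPS 0h and 5.74 to 17.4 RPM (median 11.3) at EPS 3h. The groups overlapped at both times, through 1 or more libraries at the low end of each EPS group. The log2FC was 0.62 ± 0.22 at EPS 0h (FDR 0.0261) and 0.93 ± 0.22 at EPS 3h (FDR 0.000679). The call at EPS 0h was lost without control replicate 2 or 5 of EPS 0h or replicate 4, 5 or 6 of Rest (FDR 0.0526 to 0.079), with scaling to the library total alone (FDR 0.0558) and in replicates 1 to 3 alone (FDR 0.157). Without EPS 3h control replicate 3 the log2FC at EPS 3h was 1.07 (FDR 7.42e-05). *Micu3* remained the lowest member per kb in controls, at 3.02 RPM per kb at EPS 3h.

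The pore gene *Mcu* spanned 63.0 to 90.6 RPM at Rest and 61.8 to 79.0 RPM at EPS 3h in controls, with a log2FC of -0.10 (95% interval -0.35 to 0.15, FDR 0.528). For *Mcub* the log2FC at EPS 3h was 0.03 (-0.27 to 0.32), for *Micu2* 0.02 (-0.19 to 0.24), for *Mcur1* -0.01 (-0.16 to 0.14) and for *Smdt1* -0.10 (-0.35 to 0.15). Without EPS 3h control replicate 3 *Smdt1* was at -0.22 (FDR 0.127), and *Mcur1* at 0.02 (FDR 0.881). Scaling to the library total alone, in place of TMM, moved the median of all genes by -0.17 on the log2 scale at EPS 3h in controls and by -0.16 in *Tug1* KD. With that scaling *Mcub* and *Micu2* changed sign, to -0.14 and -0.15, and neither was called. *Mcu*, *Mcur1* and *Smdt1* were further below 0 (-0.27, -0.18 and -0.27), and *Mcur1* was called (FDR 0.0486).

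In *Tug1* KD myotubes *Slc8b1* and *Letm1* fell and *Micu3* rose at both times, and *Smdt1* fell at EPS 0h. At EPS 0h 4 of 8 members passed, against 45.6% of all genes, and at EPS 3h 3 of 8, against 52.1%. *Slc8b1* went from 81.1 to 113 RPM (median 94.2) at Rest to 37.2 to 61.8 RPM (median 48.9) at EPS 0h and 34.3 to 51.0 RPM (median 42.7) at EPS 3h, again with every EPS library below every resting library. It fell by 48.1% (log2FC -0.95 ± 0.13, FDR 5.61e-07) and by 54.9% (log2FC -1.15 ± 0.14, FDR 6.14e-09). At EPS 0h the log2FC was -1.30 in replicates 1 to 3 alone and -0.61 in the others.

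*Letm1* in *Tug1* KD myotubes spanned 52.1 to 60.4 RPM at Rest, 28.8 to 56.7 RPM (median 42.3) at EPS 0h and 28.4 to 51.9 RPM (median 36.5) at EPS 3h. Only at EPS 3h were all 6 EPS libraries below the resting ones. The log2FC was -0.39 ± 0.13 at EPS 0h (FDR 0.0179) and -0.53 ± 0.13 at EPS 3h (FDR 0.00126). At EPS 0h the fall rested on replicates 1 to 3 (log2FC -0.71, against -0.11 with FDR 0.574 in replicates 4 to 6), and the call was lost without *Tug1* KD replicate 1 (FDR 0.0684) or 3 (FDR 0.0507) of EPS 0h. At EPS 3h the log2FC was -0.75 in replicates 1 to 3 alone, where the mean went from 57.5 to 33.8 RPM, and -0.31 in replicates 4 to 6 (55.7 to 44.8 RPM), each called within its set (FDR 9.69e-05 and 0.0455).

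*Smdt1* in *Tug1* KD myotubes spanned 81.0 to 126 RPM (median 114) at Rest and 68.8 to 100.3 RPM (median 82.8) at EPS 0h, and the groups overlapped. The log2FC was -0.34 ± 0.13 (FDR 0.0275) at EPS 0h and -0.12 ± 0.13 (FDR 0.469) at EPS 3h, where it was -0.20 (FDR 0.206) without *Tug1* KD replicate 3. This call came from replicates 1 to 3 (log2FC -0.66, FDR 0.00157), for in replicates 4 to 6 the log2FC was 0.02 (FDR 0.951). It was also lost without replicate 1, 2 or 3 of *Tug1* KD at Rest or replicate 1 at EPS 0h (FDR 0.069 to 0.0797).

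*Micu3* in *Tug1* KD myotubes spanned 5.05 to 7.43 RPM (median 6.82) at Rest, 5.84 to 13.0 RPM (median 9.70) at EPS 0h and 6.76 to 18.4 RPM (median 11.5) at EPS 3h. The groups overlapped at both times. The log2FC was 0.57 ± 0.22 at EPS 0h (FDR 0.035) and 0.86 ± 0.22 at EPS 3h (FDR 0.00151). The call at EPS 0h was lost without replicate 1, 2 or 5 of EPS 0h or replicate 3, 5 or 6 of Rest (FDR 0.0544 to 0.102). It was also lost in 6 of the 11 other fits: with limma-voom (FDR 0.064), library size only (0.0755), upper quartile scaling (0.0562), no filter (0.0727), replicates 1 to 3 alone (0.0642) and replicates 4 to 6 alone (0.187). At EPS 3h the log2FC without *Tug1* KD replicate 3 was 0.93 (FDR 0.00102). *Micu2* at EPS 0h was not called by the edgeR fit without a block (log2FC -0.21 ± 0.11, FDR 0.113). Counting that fit, 4 of 12 fits called it lower, among them that with the replicate block (log2FC -0.22, FDR 0.0174).

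**Figure D5:**
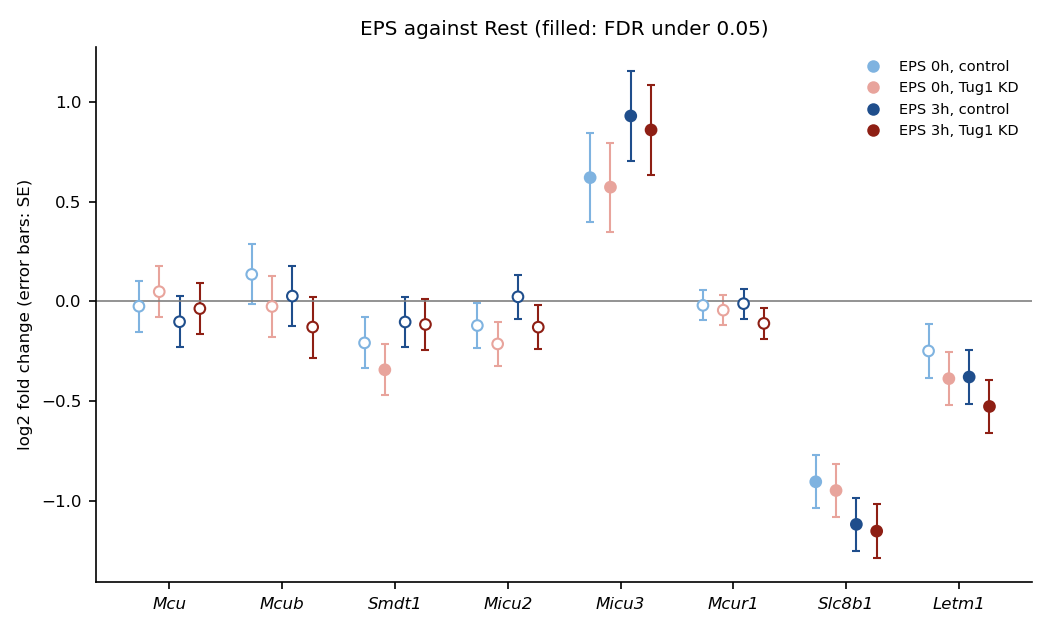
Log2 fold change of EPS against Rest (y axis, error bars SE) for each member at EPS 0h and EPS 3h in control (blue) and *Tug1* KD (red) myotubes. Filled points passed an FDR of 0.05 in edgeR. *Slc8b1* lies between -1.15 and -0.90 in all 4 comparisons and *Micu3* between 0.57 and 0.93.

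Between EPS 0h and EPS 3h none of the 8 members was called by edgeR in control myotubes (16.6% of all genes were) or in *Tug1* KD myotubes (15.7% of all genes). Of the members 0 had an unadjusted p under 0.05, against 3764 of the 13995 genes in controls and 3767 in *Tug1* KD. DESeq2 and limma-voom also called 0 members, against 2608 and 2233 of all genes in controls and 2315 and 2132 in *Tug1* KD. The members' log2FC from EPS 0h to EPS 3h lay between -0.21 and 0.31 in controls and between -0.20 and 0.29 in *Tug1* KD, with *Slc8b1* at the lower end (-0.21 and -0.20) and *Micu3* at the upper end in both.

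Whether the response to EPS depended on the LNA was tested as the difference of the log2FC between *Tug1* KD and control myotubes. No member was called at EPS 0h, where 0% of all genes passed, or at EPS 3h, where 0.00715% did (1 gene). No member had an unadjusted p under 0.05 at either time, against 324 and 430 of all genes. DESeq2 and limma-voom each called 0 members, and over all genes 0 at EPS 0h and 1 at EPS 3h. For *Slc8b1* the difference was -0.04 at EPS 0h (95% interval -0.41 to 0.32) and -0.03 at EPS 3h (-0.40 to 0.34). For *Mcu* it was 0.07 (-0.28 to 0.43) and 0.07 (-0.29 to 0.42), and for *Micu3* -0.05 (-0.67 to 0.57) and -0.07 (-0.69 to 0.55). These intervals allow differences of up to 0.69 on the log2 scale for *Micu3* and 0.43 for *Mcu*.

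EPS and resting libraries of the same LNA did not overlap for *Slc8b1* at both times and for *Letm1* at EPS 3h. In controls this made 1 member for EPS 0h, against 22% of all genes, and 2 for EPS 3h, against 28.9%. In *Tug1* KD it made 1 and 2 members, against 22.5% and 29.8%. Of the markers of other cell types *Epcam* rose (log2FC 7.42) and so did *Pecam1* (2.28) at EPS 3h in controls, and their part in the members' results was not tested.

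Members also varied between libraries of a group. *Mcu*, *Micu2* and *Micu3* had lower means in replicates 4 to 6 than in replicates 1 to 3 in all 6 groups, and *Mcub* had higher means in all 6. For *Mcu* all 3 libraries of replicates 4 to 6 lay below all 3 of replicates 1 to 3 in 5 of 6 groups, and for *Micu2* in 4 of 6. Across the 36 libraries, which share groups and replicate sets, log2 RPM of *Mcu* had a Pearson r of -0.77 with *Mcub* and 0.76 with *Micu2*. After the means of each group and replicate set were removed, r was -0.28 and 0.02. The correlation of *Slc8b1* with *Letm1* went from 0.79 to 0.12 in the same way.

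The genes whose log2 RPM was most like that of *Mcu* over the 36 libraries were *Npnt* (r 0.97), *Mboat2* (0.97) and *Arhgap28* (0.97). Their averaged log2FC in *Tug1* KD was 0.88, 1.08 and 0.94, and they span 68.8, 133.6 and 161.5 kb. A difference in the direction of *Mcu* follows from the choice, since the libraries ranked included both LNAs. Genes next in likeness spanned from 14.5 to 2105.7 kb. *Npnt* encodes the extracellular matrix protein nephronectin and *Mboat2* a lysophospholipid acyltransferase.

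The promoter windows of 6 members (*Mcu*, *Mcub*, *Micu2*, *Smdt1*, *Mcur1* and *Letm1*) were taken from RefSeq (GRCm38.p6, 250 bases before to 50 after the start site). *Micu3* and *Slc8b1* had no entry. The windows were searched on both strands for TGACGTCA (the cAMP response element), TGACG (which it contains), GCGCATGC (a core of the NRF1 motif) and CAGCTG (an E-box of myogenic factors). Of 27025 promoters 1.88%, 21.0%, 2.80% and 16.1% held them. *Smdt1* alone among the 6 held TGACGTCA, starting 146 bases before the start site, and *Mcub* held CAGCTG. Neither was a called gene in control myotubes after EPS. *Smdt1* was called lower at EPS 0h in *Tug1* KD myotubes (edgeR, FDR 0.0275), and *Mcub* lower in *Tug1* KD averaged over conditions (FDR 0.0012). A match is a description and not a binding site, and its part in these changes was not tested. The window of *Smdt1* is shown for the match (in capitals; chr15:82345796-82346095, plus strand), and that of *Mcu* as the member with the largest difference between LNAs (coding bases from the start codon in capitals; chr10:59616643-59616942, minus strand).
Smdt1: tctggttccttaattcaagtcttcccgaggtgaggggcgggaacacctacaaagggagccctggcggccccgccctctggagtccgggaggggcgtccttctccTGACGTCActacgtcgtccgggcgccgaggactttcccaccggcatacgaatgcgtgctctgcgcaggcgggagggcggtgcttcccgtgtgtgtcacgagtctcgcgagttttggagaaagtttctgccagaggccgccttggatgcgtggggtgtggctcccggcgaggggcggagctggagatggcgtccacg
Mcu: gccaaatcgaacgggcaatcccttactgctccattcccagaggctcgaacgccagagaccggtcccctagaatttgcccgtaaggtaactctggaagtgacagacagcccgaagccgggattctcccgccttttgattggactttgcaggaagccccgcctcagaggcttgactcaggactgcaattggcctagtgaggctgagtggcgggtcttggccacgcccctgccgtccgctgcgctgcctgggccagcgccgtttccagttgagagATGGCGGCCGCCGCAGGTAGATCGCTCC
None of the motifs searched occurred in the window of *Mcu*, *Micu2*, *Mcur1* or *Letm1*. The *Smdt1* and *Mcu* windows hold 65.3% and 61.7% G and C, beside a median of 52.7% over all promoters.

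The other genes of mitochondrial Ca2+ handling were examined as lists. Of 10 genes of uniporter assembly and turnover and other inner membrane transport, 3 rose and 1 fell in *Tug1* KD averaged over conditions, with a list median of 0.02 beside -0.02 for all genes. For each list this comparison is read against the 33.1% of all genes called in it, and EPS 3h in controls against 52%, and no difference between a list's share and these was tested. The proteases *Yme1l1* (log2FC 0.29 ± 0.10, FDR 0.0236) and *Oma1* (0.26 ± 0.06, FDR 0.0016) were among those that rose, and *Spg7*, which encodes the m-AAA protease subunit paraplegin, fell (-0.15 ± 0.04, FDR 0.00234). At EPS 3h in controls 4 rose and 1 fell (5 of 10, against 52%): *Maip1*, whose product protects newly made EMRE, rose (0.65 ± 0.13, FDR 6.98e-05), as did *Letm2* (0.58 ± 0.14, FDR 0.0006), while *Oma1* fell (-0.53 ± 0.11, FDR 0.000173).

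Of 14 genes that bring Ca2+ from the reticulum to mitochondria, 3 rose and 0 fell in *Tug1* KD (3 of 14 called, against 33.1%, median 0.06). All 3 encode release channels of the reticulum: *Ryr1* (log2FC 0.74 ± 0.12, FDR 3.53e-06), *Itpr2* (0.35 ± 0.06, FDR 3.17e-05) and *Itpr1* (0.24 ± 0.07, FDR 0.00462). *Itpr3*, another release channel gene of the list, was not called. At EPS 3h in controls 5 rose and 2 fell (7 of 14, against 52%, median 0.17). *Hspa9*, the mitochondrial chaperone at reticulum contacts, rose (1.06 ± 0.10, FDR 3.03e-11).

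Of the Ca2+-responsive matrix enzymes and mitochondrial carriers, 11 of 12 were tested, and 0 rose and 3 fell in *Tug1* KD (3 of 11 called, against 33.1%, median -0.11). The oxoglutarate dehydrogenase gene *Ogdh* (log2FC -0.39 ± 0.05, FDR 2.51e-07) and the Ca2+-regulated aspartate/glutamate carrier *Slc25a12* (-0.39 ± 0.05, FDR 1.27e-08) fell by like amounts. At EPS 3h in controls 4 rose and 1 fell (5 of 11, against 52%). *Ogdh* fell there too (-0.40 ± 0.09, FDR 0.00043), and *Gpd2*, the mitochondrial glycerol phosphate dehydrogenase, rose (0.31 ± 0.09, FDR 0.0035).

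Of the reticulum pumps and buffers, 9 of 10 were tested, and 1 rose and 4 fell in *Tug1* KD (5 of 9 called, against 33.1%, median -0.13). The calsequestrin genes moved in opposite directions, *Casq2* upward (log2FC 0.61 ± 0.08, FDR 6.24e-08) and *Casq1* downward (-0.46 ± 0.05, FDR 3.92e-09), and the fast-fibre pump gene *Atp2a1* fell (-0.45 ± 0.06, FDR 1.89e-07). At EPS 3h in controls 1 rose and 4 fell (5 of 9, against 52%), with the pump regulator *Mrln* (-1.41 ± 0.28, FDR 7.55e-05) and the store-operated channel *Orai1* (-0.76 ± 0.12) among them.

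Of 15 genes of general mitochondrial content, 4 rose and 2 fell in *Tug1* KD (6 of 15 called, against 33.1%) with a median of 0.01, and their summed group means lay between 2638 and 2865 RPM. *Chchd3* rose (log2FC 0.54 ± 0.07, FDR 3.83e-08). At EPS 3h in controls 5 rose and 0 fell (5 of 15, against 52%), led by the import receptor gene *Tomm20* (0.55 ± 0.09). Of 10 myotube markers 1 rose and 1 fell in *Tug1* KD, and of 6 markers of cycling or undifferentiated cells 0 rose and 4 fell, again against 33.1% of all genes called. The part of these markers in the members' results was not tested.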

How the data were processed

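The authors sequenced poly-A RNA from each well (directional library, 150-base reads), trimmed with fastp (version 0.14.1), aligned in 2 passes with STAR (version 2.5, per the labels) to GRCm39, and deposited whole-number counts per gene without normalization. How reads were counted is not given in the sources used here. Each of the 36 libraries held the same counts in its own table and in the matrix, and 1492 of 55416 genes had no name (0.0327% of counts).

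From these counts 12 comparisons were fitted over all 36 libraries with edgeR 4.0.16 (TMM scaling, robust quasi-likelihood test, R 4.3.3), and FDR was adjusted over 13995 genes. Alternatives were DESeq2 1.42.0, limma-voom (limma 3.58.1), other scalings, filters, blocks and subsets. Scripts were tested on simulated data. The 8 members and all gene lists were chosen with earlier results of these data known; from each list at most 3 genes with the largest called change were named per comparison. Lengths and positions came from GENCODE vM39 and the promoters from RefSeq.

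A rule for pairing asked that deviations from the group means correlate above 0.1 in every same-numbered pair of libraries. It was met for *Tug1* KD against control at EPS 0h and EPS 3h, and for EPS 0h against Rest with either LNA. It was also met for EPS 3h against Rest in controls, and for EPS 3h against EPS 0h in *Tug1* KD. The other 3 comparisons did not meet it (lowest r -0.08 for *Tug1* KD at Rest). Libraries of different numbers were not compared, and these deviations also hold the difference between the sets of replicates. The rule therefore cannot show that replicate numbers pair wells.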

Additional observations from a re-analysis of the deposited data

Results flagged for a closer look

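A single value stood far from the rest of its group. *Smdt1* was at 85.2046 RPM in resting control replicate 6, while the nearest library of that group had 106 RPM and the highest 118 RPM. The gap made up 0.64 of the group's range, against a critical value of 0.625 for 6 libraries. In all, 48 combinations of member and group were examined, and chance marks about 1 in 20 of them. Without that library *Smdt1* had a log2FC of -0.09 between LNAs at Rest (edgeR, FDR 0.817), beside -0.02 with it, and *Micu3* at EPS 0h in controls and *Micu2* at Rest lost their calls.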

How the results depend on the processing

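The 11 other fits gave 1048 member values, of which 945 kept their direction and their side of the threshold, 52 were uncalled in both with the other sign, 14 lost a call and 36 gained one. The exception in sign was *Smdt1* at EPS 0h in *Tug1* KD, at 0.015271 in replicates 4 to 6 only. For *Tug1* KD against control the members called at EPS 0h went from 2 to 4 with DESeq2 or library size only, 5 with upper quartile scaling and 6 with the replicate or experiment block. The experiment block was the split of replicates 1 to 3 against 4 to 6, since the labels do not name the experiment. Over all genes tested the count there went from 2005 to 2309 with DESeq2, 2104 with library size only and 2163 with upper quartile scaling. With the replicate block it was 3406 and with the experiment block 3179. At EPS 3h the members called went from 2 to 5 with either block and 1 in replicates 1 to 3 only. Over all genes 2878 were called there with the replicate block, 2611 with the experiment block and 852 in replicates 1 to 3 only, in place of 1608. For EPS 0h against Rest the members called went from 2 to 1 in controls with library size only, and from 4 to 1 in *Tug1* KD in replicates 4 to 6 only. In these fits the calls over all genes went from 5441 to 5803 and from 6388 to 3980. For EPS 3h against Rest in *Tug1* KD the members called went from 3 to 6 with library size only, which added *Mcur1*, *Micu2* and *Smdt1* as lower. Over all genes the calls went from 7293 to 8473 with that scaling. The cause of these changes was not tested.

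Leaving out each of the 36 libraries in turn, and levels per kb of all annotated exons, were added after seeing the data. Of 3456 member values 3333 kept their direction and side, 82 were uncalled in both with the other sign, 21 lost a call, 20 gained one and 0 called values changed sign. The members called ranged from 2 to 3 at Rest, 2 to 5 at EPS 0h and 2 to 4 at EPS 3h for *Tug1* KD against control, from 1 to 2 for EPS 0h in controls, from 2 to 3 for EPS 3h in controls and from 1 to 4 for EPS 0h in *Tug1* KD. The average over conditions stayed at 6, and EPS 3h in *Tug1* KD at 3. At EPS 0h *Mcub*, *Letm1*, *Slc8b1* or *Micu2*, and at EPS 3h *Mcub*, *Letm1* or *Slc8b1*, gained a call with some libraries left out. The highest count at EPS 0h came without *Tug1* KD replicate 6. At EPS 3h it came without control replicate 1, without *Tug1* KD replicate 5 and without *Tug1* KD replicate 6 of that condition.

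Counts over all genes moved by more than 1.5 times in some fits. The replicate block gave 2410 in place of 1401 for *Tug1* KD at Rest, 3406 in place of 2005 at EPS 0h, 2878 in place of 1608 at EPS 3h, 3531 in place of 2317 and 3366 in place of 2200 for EPS 3h against EPS 0h in controls and *Tug1* KD, and 1 in place of 0 and 8 in place of 1 for the LNA-dependent responses. It changed no call of a member beyond those given. The experiment block gave 2232, 3179 and 2611 for *Tug1* KD at the 3 conditions, and 1 LNA-dependent response at EPS 0h. Replicates 1 to 3 only gave 866, 940 and 852, 2874 in place of 4632 for the average, and 1290 for EPS 3h against EPS 0h in *Tug1* KD. Replicates 4 to 6 only gave 2256 for *Tug1* KD at Rest and 3980 in place of 6388 for EPS 0h in *Tug1* KD. Without a filter 1295 and 925 were called for *Tug1* KD at EPS 0h and EPS 3h, 11468 in place of 7277 and 12730 in place of 7293 for EPS 3h in controls and *Tug1* KD, and 3854 for EPS 3h against EPS 0h in *Tug1* KD. A fit to the compared groups only gave 831 for *Tug1* KD at EPS 3h.

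With library size only, 32.6% of called genes were higher at EPS 3h in controls and 33.1% in *Tug1* KD, in place of 50.2% and 50.3%. For EPS 0h against Rest the shares were 40.05% and 40.6%, in place of 52.8% and 53.6%, for EPS 3h against EPS 0h 37.05% and 37.07%, in place of 58.4% and 54.6%, and for *Tug1* KD at EPS 0h 46.9% in place of 57.6%. Upper quartile scaling gave 44.1% for the last.

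The wells of a single cell line limit what the spread covers. *Micu3* and *Mcub* had the lowest levels and the widest errors.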
